A study of Homo sapiens with 6 samples.

Results

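The genes described are 10 myeloid granule protein genes, MPO, AZU1, PRTN3, ELANE, CTSG, RNASE2, RNASE3, CHI3L1, LYZ and SRGN. They were taken by name from a deposited table of 24878 genes, and all 10 passed the filter on low counts that left 14601 genes for testing. The RNA came from MOLM-13, an established cell line from a human acute myeloid leukaemia that the labels class as AML-M5, the monocytic form. The KO cells carried a doxycycline-inducible vector for knockout (KO) of CaMK2D, a kinase switched on by calcium and calmodulin. These cells had been induced for 3 days (KO day 3, 2 libraries) or 5 days (KO day 5, 2 libraries). The control group was MOLM-13 control cells without doxycycline induction (2 libraries). All groups were grown in the same medium with serum. The labels do not say whether the KO cells were a clone or a pool, whether the controls carried an empty vector, or whether the pair of a group was grown separately. The p-values therefore reflect only how far these libraries spread, possibly for technical reasons, and the vector, doxycycline and culture time cannot be told apart. Where libraries are listed, the pair of a group is given as replicate 1 and then replicate 2.

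Granule proteins are made mostly in promyelocytes and early monocyte precursors, where their mRNAs are among the most abundant of the cell, and are stored for later release or for killing inside the phagosome. Azurophil granules hold myeloperoxidase, the neutrophil serine proteases and their inactive relative azurocidin, packed with the proteoglycan serglycin. C/EBP factors, PU.1, RUNX1 and MYB are known regulators of several of these genes in myeloid cells.

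The libraries held 15456770 to 21081298 counts each, so that a gene with no read in the shallowest library could still have had up to 0.194 CPM (counts scaled to library size with TMM factors), taking 3 counts as the limit of counting error only. CAMK2D itself stood at 14.7 and 15.6 CPM in KO day 3 libraries, 28.98 and 28.13 CPM in KO day 5 libraries, and 23.0 and 14.5 CPM in controls, and was not called at either day (edgeR adjusted p = 0.437 and 0.118), so its mRNA did not mark the knockout and the libraries are called by their labels. As a check of the cell label, the myeloid marker CD33 lay at 47.5 to 55.9 CPM over the 6 libraries, and the leukocyte integrin ITGB2 at 460.3 to 622 CPM. Monocyte and macrophage markers were mixed. CD14 and CD163 reached at most 2.97 and 1.80 CPM. Some others were higher in controls, with CD36 at 69.9 and 43.1 CPM, FCGR1A at 85.4 and 42.4 CPM and MNDA at 45.4 and 30.9 CPM. The 16 listed markers of this kind summed to 509 and 455 CPM in controls.

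Sequence upstream of the start was available for 6 of the 10 genes in a RefSeq table (build GRCh38.p14), namely AZU1, PRTN3, CTSG, RNASE2, RNASE3 and CHI3L1. Windows from 250 bases before to 50 bases after the RefSeq start were searched on both strands for a C/EBP motif (TTGCNNAA), a PU.1 motif (GAGGAA), a RUNX motif (TGTGGT) and a MYB motif (CAACNG). The C/EBP letters were present in 4 of the 6 windows, against 10.5% of all 35116 windows of that length, and the MYB letters in 5 of 6, against 32.9%. The PU.1 letters were present in 2 of 6 windows, against 27.9%, and the RUNX letters in 0 of 6, against 13.1%. A match is a description of letters and not a measured site, and no match says only that the letters are not in this window. Shown here are the 250 bases before the start of AZU1, PRTN3, RNASE2, RNASE3 and CTSG. The neighbours AZU1 and PRTN3 and the paralogs RNASE2 and RNASE3 were all 4 called lower at KO day 5. For CTSG no change was called in the edgeR fit without a replicate term. The sequences run 5′ to 3′ on the gene's strand, and capitals mark matches of the motifs. The RefSeq start of AZU1 lies inside the GENCODE span of the gene given with its values, downstream of its first annotated base, so the printed AZU1 stretch lies within that span. They come from chr19:827587-827836 (plus strand), chr19:840749-840998 (plus strand), chr14:20955237-20955486 (plus strand), chr14:20891135-20891384 (plus strand) and chr14:24576251-24576500 (minus strand).
AZU1: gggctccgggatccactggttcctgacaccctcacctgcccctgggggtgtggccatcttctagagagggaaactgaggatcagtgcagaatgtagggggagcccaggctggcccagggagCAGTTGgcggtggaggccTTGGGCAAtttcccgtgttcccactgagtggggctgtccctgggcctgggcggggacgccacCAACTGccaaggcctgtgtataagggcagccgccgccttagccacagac
PRTN3: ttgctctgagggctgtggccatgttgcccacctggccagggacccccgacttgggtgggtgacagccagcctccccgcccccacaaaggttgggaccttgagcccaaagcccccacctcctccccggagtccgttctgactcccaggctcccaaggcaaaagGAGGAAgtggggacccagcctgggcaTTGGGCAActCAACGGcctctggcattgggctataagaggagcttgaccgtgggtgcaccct
RNASE2: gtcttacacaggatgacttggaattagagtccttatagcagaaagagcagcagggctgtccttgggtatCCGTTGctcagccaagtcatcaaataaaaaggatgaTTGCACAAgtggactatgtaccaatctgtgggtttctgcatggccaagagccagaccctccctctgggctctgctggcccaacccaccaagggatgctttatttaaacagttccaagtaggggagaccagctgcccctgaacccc
RNASE3: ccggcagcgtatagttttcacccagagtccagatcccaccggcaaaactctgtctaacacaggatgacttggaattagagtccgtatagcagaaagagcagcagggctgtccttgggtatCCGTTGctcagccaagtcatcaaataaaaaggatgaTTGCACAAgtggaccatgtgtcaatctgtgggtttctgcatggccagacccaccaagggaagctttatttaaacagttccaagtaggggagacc
CTSG: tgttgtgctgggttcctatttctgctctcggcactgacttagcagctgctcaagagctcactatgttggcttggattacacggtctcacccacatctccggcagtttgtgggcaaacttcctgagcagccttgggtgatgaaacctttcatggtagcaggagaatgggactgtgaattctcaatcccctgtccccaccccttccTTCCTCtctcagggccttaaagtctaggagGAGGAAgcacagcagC
AZU1 and PRTN3 held the same C/EBP letters, TTGGGCAA, which match on the strand opposite to the gene, starting at base -111 in AZU1 and at base -62 in PRTN3. RNASE2 and RNASE3 held TTGCACAA at base -145 and base -94. The RNASE2 and RNASE3 windows aligned over 283 columns with 85.9% identity (243 identical bases, 6 mismatches and 34 gap positions), so their shared letters are not independent. The CTSG window held PU.1 letters at base -46 and base -16, a MYB match that begins at base -1 and runs past the printed stretch, and no C/EBP match. The CHI3L1 window, which is not printed, held none of the motifs, and CHI3L1 was called lower at both days.

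As a group, the granule protein transcripts took a smaller share of the counts in KO-labelled libraries. They made up 0.422% ± 0.0359 of all counts at KO day 3 and 0.355% ± 0.00107 at KO day 5, against 0.944% ± 0.0627 in controls (SD, n = 2 each). At KO day 3, 5 of the 10 genes fell against control (MPO, AZU1, RNASE2, RNASE3 and CHI3L1) and 0 rose in edgeR's quasi-likelihood test at an adjusted p under 0.05. Over all genes tested, 5.99% fell and 5.72% rose in that comparison. At KO day 5, PRTN3 and SRGN were past the threshold too, so that 7 fell and 0 rose, against 7.05% of all genes lower and 7.44% higher. At an unadjusted p under 0.05 the counts were 7 lower and 0 higher at either day. DESeq2 called 6 lower at day 3 and 7 at day 5. Neither DESeq2 nor limma on the FPKM values called a member higher. Over all genes, DESeq2 called 2399 at KO day 3 in either direction, against 1710 in edgeR. The shares above are therefore no background for these counts, and the shares at an unadjusted p are not given. The members' median log2 fold change was -1.69 at KO day 3 and -1.91 at KO day 5, against -0.00012 and 0.015 over all genes tested. The members were chosen with earlier results of these data known. Their contrast with all genes, here and below, may partly follow from that choice and is no independent test. ELANE, CTSG and LYZ were not called at either day. In these bulk libraries fewer cells that express a gene and less RNA per cell cannot be told apart.

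**Figure D1:**
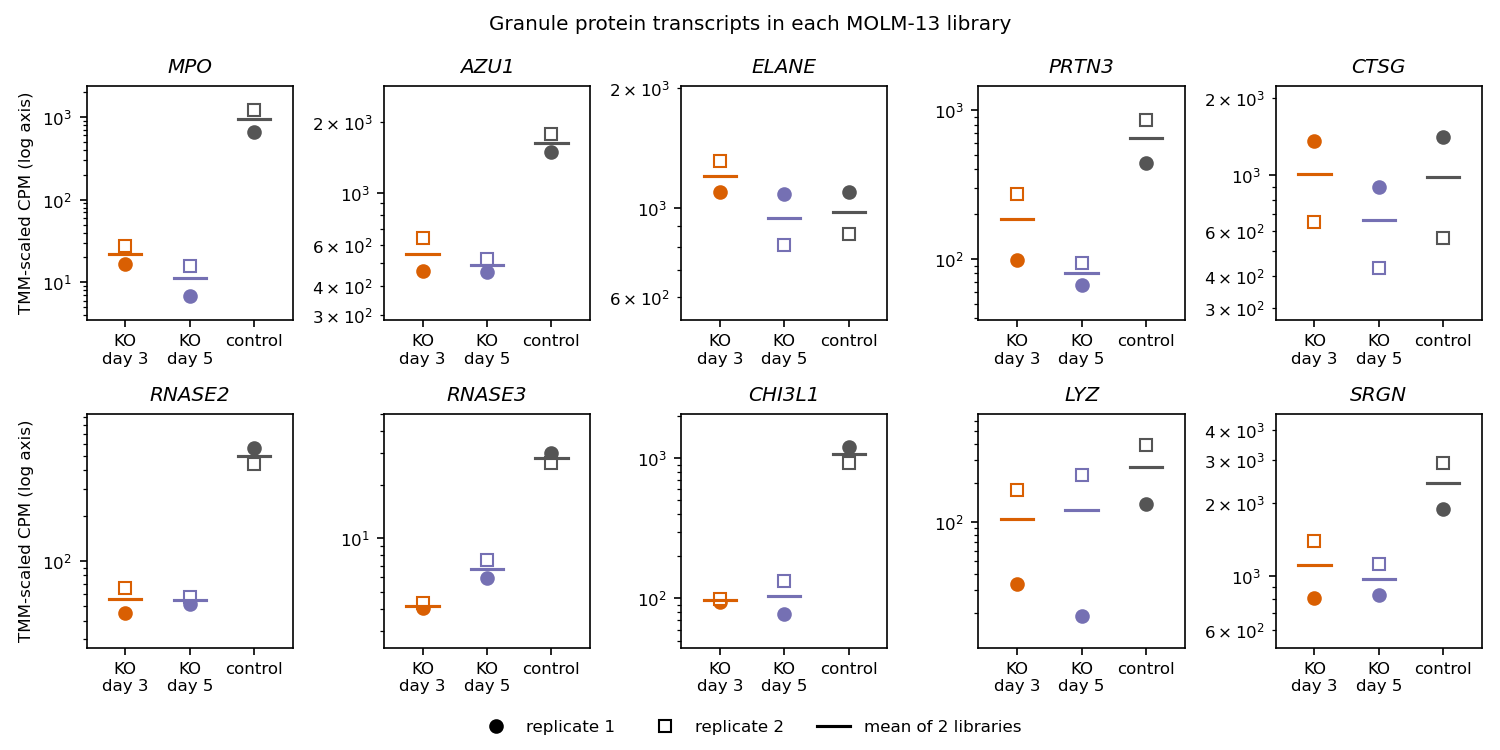
TMM-scaled CPM (log axis) of each granule protein gene in each library, with KO day 3, KO day 5 and control from left to right. Filled circles are replicate 1, open squares replicate 2 and bars the mean of 2 libraries. MPO, AZU1, PRTN3, RNASE2, RNASE3, CHI3L1 and SRGN have both KO pairs below both controls, while ELANE, CTSG and LYZ overlap with the controls in at least 1 comparison.

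Of the 10 genes, the peroxidase showed the widest gap between a KO group and the controls. MPO (ENSG00000005381, chromosome 17, 58269856 to 58280935, minus strand, GRCh38, GENCODE release 29) encodes myeloperoxidase, the haem enzyme of azurophil granules that makes hypochlorous acid. It stood at 16.5 and 27.7 CPM in KO day 3 libraries, at 6.85 and 15.6 CPM in KO day 5 libraries, and at 662 and 1219.9 CPM in controls. All 4 KO-labelled libraries lay far below both controls, and the mean level was 42.6 times lower at KO day 3 and 84.0 times lower at KO day 5. MPO fell by 5.41 on the log2 scale at KO day 3 (standard error, SE, 0.61, edgeR adjusted p = 0.0116) and fell by 6.39 at KO day 5 (SE 0.64, adjusted p = 0.00725). Among genes ranked by length-scaled level (FPKM) in each library, MPO was at rank 6578 and 4963 at KO day 3, rank 9297 and 6931 at KO day 5, and rank 165 and 105 in controls. The day 3 call was lost without control replicate 1 (adjusted p = 0.0636), control replicate 2 (0.0502), KO day 3 replicate 1 (0.0726) or KO day 3 replicate 2 (0.0611). The day 5 call held without each library in turn, with log2 fold changes of -7.10 to -5.91.

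**Figure D2:**
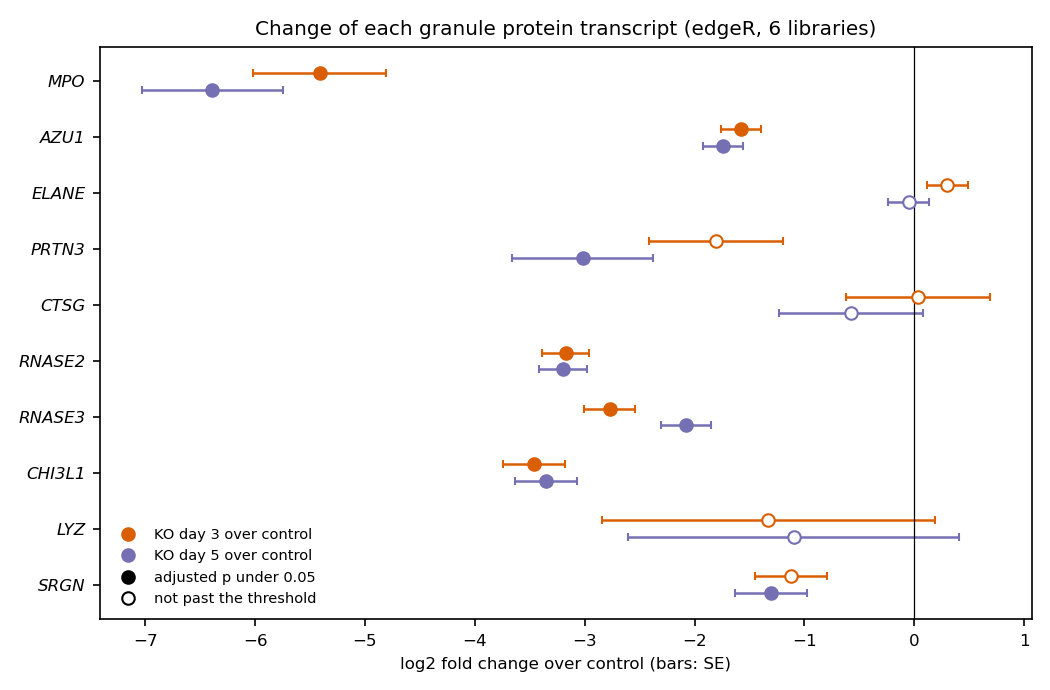
Log2 fold change over control (x axis, bars are SE) of each granule protein gene from the edgeR fit of all 6 libraries, KO day 3 above KO day 5. Filled points had an adjusted p under 0.05. MPO is farthest to the left at both days, at -5.41 and -6.39, and ELANE and CTSG sit nearest to 0.

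In the serine protease family AZU1 was called lower at both days and PRTN3 at KO day 5, and ELANE and CTSG at neither. AZU1, PRTN3 and ELANE lie side by side on the plus strand of chromosome 19, with 8941 bases between AZU1 and PRTN3 and 2838 bases between PRTN3 and ELANE, and CTSG lies on chromosome 14. AZU1 (ENSG00000172232, 825097 to 832018) encodes azurocidin, an antimicrobial relative of the proteases that has lost its catalytic activity. It stood at 461 and 638 CPM at KO day 3, 459.8 and 521 CPM at KO day 5, and 1497 and 1783 CPM in controls, with no overlap. AZU1 fell by 1.58 on the log2 scale at KO day 3 (SE 0.18, edgeR adjusted p = 0.00315) and fell by 1.74 at KO day 5 (SE 0.18, adjusted p = 0.00184). PRTN3 (ENSG00000196415, 840960 to 848175) encodes proteinase 3, the target of the autoantibodies in granulomatosis with polyangiitis. It stood at 98.8 and 272 CPM at KO day 3, 66.5 and 93.3 CPM at KO day 5, and 441 and 853 CPM in controls. Both KO pairs lay below both controls, but replicate 2 was well above replicate 1 at KO day 3 and in controls. PRTN3 had a log2 fold change of -1.80 at KO day 3 (SE 0.61, adjusted p = 0.140), which did not pass the threshold, and fell by 3.02 at KO day 5 (SE 0.64, adjusted p = 0.0475). Its day 5 call was lost without control replicate 1 (adjusted p = 0.159), control replicate 2 (0.220), KO day 5 replicate 1 (0.180) or KO day 5 replicate 2 (0.180), and also with no filter (0.160) or with limma and no filter (0.0689).

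ELANE (ENSG00000197561, chromosome 19, 851014 to 856247) encodes neutrophil elastase, the gene mutated in severe congenital and cyclic neutropenia. It stood at 1098 and 1315 CPM at KO day 3, 1085 and 808 CPM at KO day 5, and 1098 and 863 CPM in controls. The KO day 5 pair overlapped with the controls, and the KO day 3 pair lay at or above the higher control. The log2 fold change of ELANE was 0.30 at KO day 3 (SE 0.19, edgeR adjusted p = 0.332) and -0.05 at KO day 5 (SE 0.19, adjusted p = 0.888). CTSG (ENSG00000100448, chromosome 14, 24573522 to 24576260, minus strand) encodes cathepsin G, a chymotrypsin-like protease. It stood at 1362 and 651 CPM at KO day 3, 895 and 429 CPM at KO day 5, and 1404 and 566 CPM in controls. The groups overlapped, and replicate 1 exceeded replicate 2 in each of them. The log2 fold change of CTSG was 0.03 at KO day 3 (SE 0.65, adjusted p = 0.982) and -0.57 at KO day 5 (SE 0.66, adjusted p = 0.621). Changes of this size were not detectable with the SEs of this fit, which has no replicate term. In these fits without a replicate block the direction for CTSG turned when a library was left out. Its log2 fold changes were -0.59 to 0.83 at KO day 3 and -1.21 to 0.22 at KO day 5, and those of ELANE -0.29 to 0.15 at KO day 5. Between libraries of the same number, the log2 CPM ratios of CTSG over control were -0.04 and 0.20 at KO day 3, and -0.65 and -0.40 at KO day 5. With a replicate block, a term for the replicate number, edgeR called CTSG lower at KO day 5 (adjusted p = 0.00298). At KO day 3 it was not called in that fit (adjusted p = 0.691).

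The proportions within the chromosome 19 locus differed between the groups. Per length, the AZU1 to ELANE ratio of FPKM values was 0.242 and 0.280 at KO day 3, 0.244 and 0.371 at KO day 5, and 0.786 and 1.19 in controls. The PRTN3 to ELANE ratio was 0.0807 and 0.186 at KO day 3, 0.0550 and 0.104 at KO day 5, and 0.360 and 0.886 in controls. In both ratios all 4 KO-labelled libraries lay below both controls, and the ratios are given with no test, since 2 libraries against 2 cannot reach p under 0.05 in an exact permutation test. No 50-base stretch of the AZU1, PRTN3 or ELANE exons was found in another of them (0 of 1781, 1096 and 979 stretches). Of the 7 tested genes around them on chromosome 19, edgeR called 1 higher and 0 lower at KO day 3, and 0 higher and 0 lower at KO day 5. At an unadjusted p under 0.05 these counts were 2 and 0 at KO day 3 and 2 and 1 at KO day 5, DESeq2 called 2 and 0, then 1 and 1, and limma called 0. CFD, the complement factor D gene 3395 bases beyond ELANE, stood at 354 and 342 CPM at KO day 3, 327 and 247 CPM at KO day 5, and 513 and 369 CPM in controls, with no call. WDR18, which had a log2 fold change of 0.62 at KO day 3 (adjusted p = 0.0444), kept its call in 1 of the 6 fits without a library and reached an adjusted p of up to 0.278 over the alternatives. The log2 fold changes of the 7 neighbours ranged from -0.34 to 0.62 at KO day 3 and from -0.62 to 0.54 at KO day 5.

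**Figure D3:**
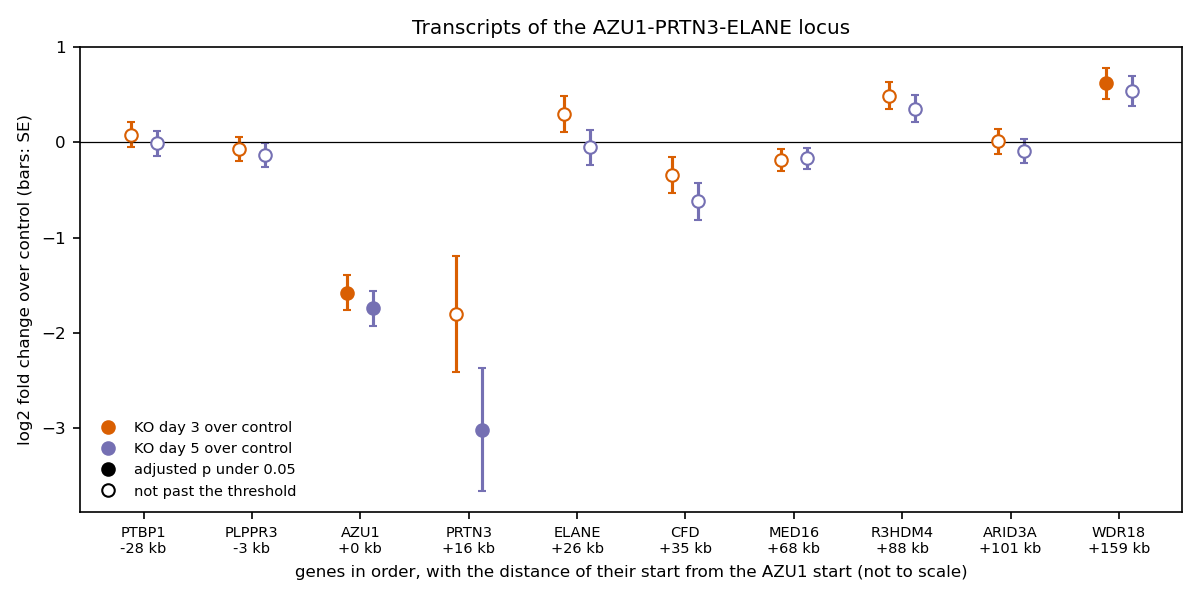
Log2 fold change over control (y axis, bars are SE) of the tested genes around AZU1, PRTN3 and ELANE in chromosome order, with the distance of each start from the AZU1 start in kb on the x axis (not to scale). For each gene KO day 3 is left of KO day 5, and filled points had an adjusted p under 0.05. AZU1 and PRTN3 lie between -3.02 and -1.58, while the flanking genes lie between -0.62 and 0.62.

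Both ribonuclease genes fell. RNASE2 (ENSG00000169385, chromosome 14, 20955452 to 20956436, plus strand) encodes eosinophil-derived neurotoxin, and RNASE3 (ENSG00000169397, 20891399 to 20892348, plus strand) encodes eosinophil cationic protein, a close paralog that lies 63103 bases away. RNASE2 stood at 45.0 and 66.2 CPM at KO day 3, 51.8 and 57.6 CPM at KO day 5, and 559 and 444 CPM in controls. RNASE3 stood at 4.01 and 4.29 CPM at KO day 3, 5.94 and 7.54 CPM at KO day 5, and 30.3 and 26.6 CPM in controls. Neither gene overlapped between a KO group and the controls. RNASE2 fell by 3.17 on the log2 scale at KO day 3 (SE 0.22, edgeR adjusted p = 0.00064) and fell by 3.20 at KO day 5 (SE 0.22, adjusted p = 0.000392). RNASE3 fell by 2.77 at KO day 3 (SE 0.24, adjusted p = 0.00127) and fell by 2.07 at KO day 5 (SE 0.23, adjusted p = 0.00213). Per length, RNASE2 exceeded RNASE3 in every library, by 10.7 and 14.7 times at KO day 3, 8.32 and 7.29 times at KO day 5, and 17.6 and 15.9 times in controls. Only 2.98% of the 50-base stretches of RNASE2 exons were shared with RNASE3, but reads from those stretches are uncertain. RNASE6, a further ribonuclease of the cluster, stood at 3.28 and 3.08 CPM at KO day 3, 3.11 and 7.10 CPM at KO day 5, and 25.8 and 15.5 CPM in controls (log2 fold changes -2.70 and -2.01, adjusted p = 0.0113 and 0.0217). The KO day 3 call was lost without either KO day 3 library, at an adjusted p of up to 0.0723 over the alternatives, and the KO day 5 call without control replicate 1 or KO day 5 replicate 1, at up to 0.0828.

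CHI3L1 (ENSG00000133048, chromosome 1, 203178931 to 203186749, minus strand) encodes YKL-40, a chitinase-like lectin without chitinase activity that neutrophils keep in specific granules and macrophages secrete. It stood at 94.4 and 99.6 CPM at KO day 3, 76.9 and 132 CPM at KO day 5, and 1208 and 927 CPM in controls. All KO-labelled libraries were below both controls, with a mean 11.01 times lower at KO day 3 and 10.2 times lower at KO day 5. CHI3L1 fell by 3.46 on the log2 scale at KO day 3 (SE 0.28, edgeR adjusted p = 0.0018) and fell by 3.35 at KO day 5 (SE 0.28, adjusted p = 0.00152). Its chitinase relatives CHIT1 and CHI3L2 were near the floor, at most 1.92 CPM in any library. The calls of AZU1, RNASE2, RNASE3 and CHI3L1 held at both days under each of the 16 alternatives tried, including each library left out.

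LYZ (ENSG00000090382, chromosome 12, 69348341 to 69354234, plus strand) encodes lysozyme, which cleaves bacterial peptidoglycan and is made in bulk by monocytes. It stood at 33.6 and 178 CPM at KO day 3, 18.96 and 229 CPM at KO day 5, and 139 and 392 CPM in controls. The groups overlapped, and replicate 2 exceeded replicate 1 by 5.30 times at KO day 3, 12.1 times at KO day 5 and 2.81 times in controls. The log2 fold change of LYZ was -1.33 at KO day 3 (SE 1.52, edgeR adjusted p = 0.634) and -1.10 at KO day 5 (SE 1.51, adjusted p = 0.688), an error that would hide even large changes. SRGN (ENSG00000122862, chromosome 10, 69088106 to 69104811, plus strand) encodes serglycin, the proteoglycan on whose chains granule proteins are packed. It stood at 810.1 and 1398 CPM at KO day 3, 834 and 1116 CPM at KO day 5, and 1895 and 2916 CPM in controls, with no overlap. SRGN had a log2 fold change of -1.12 at KO day 3 (SE 0.33, adjusted p = 0.0813) and fell by 1.30 at KO day 5 (SE 0.33, adjusted p = 0.0496). The day 5 call was lost without control replicate 1 (adjusted p = 0.146), control replicate 2 (0.270), KO day 5 replicate 1 (0.190) or KO day 5 replicate 2 (0.128). It was also lost with limma on FPKM values, at adjusted p = 0.0521 to 0.126, while the day 3 value passed with no filter (0.00162) and with DESeq2 (0.000585).

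Counting the groups that do not overlap in CPM, 7 members had both KO day 3 libraries below both controls and 1, ELANE, had both above, where 30.1% and 30.3% of all genes tested did so. For ELANE this was nearly a tie, at 1098.42 CPM in KO day 3 replicate 1 and 1098.19 CPM in control replicate 1. In FPKM the ELANE groups overlapped (1052.6 and 1075.8 in these libraries). At KO day 5, 7 members lay below both controls and 0 above, against 28.4% and 29.6% of all genes.

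Between the days, no member passed the threshold in the edgeR fit without a replicate block. In that test of KO day 5 against KO day 3, 0 members were lower and 0 higher, where 0% of all genes were lower and 0.0274% higher. At an unadjusted p under 0.05, 0 members were lower and 1 was higher, and DESeq2 and limma called 0. The share of all genes at an unadjusted p is not given, so this count has no background. The 1 gene was RNASE3, with a log2 fold change of 0.70 (SE 0.23, adjusted p = 0.249). MPO had a log2 fold change of -0.98 (SE 0.54, adjusted p = 0.470) and PRTN3 one of -1.21 (SE 0.61, adjusted p = 0.431), and the other members lay between -0.60 and 0.23. In libraries, 3 members (MPO, PRTN3 and ELANE) had both KO day 5 CPM values below both KO day 3 values and 1 (RNASE3) above, against 23.8% and 25.5% of all genes. In FPKM the ELANE libraries of the days overlapped. A p that misses the threshold with 2 libraries a group does not show that the days were alike.

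The make-up of the granule transcripts is given per length. The summed FPKM of the 10 genes was 3138 and 3583 at KO day 3, 2861 and 2746 at KO day 5, and 6316 and 6778 in controls. ELANE and CTSG together held 64.7% and 47.0% of that sum at KO day 3, 60.6% and 41.5% at KO day 5, and 33.3% and 18.3% in controls, so every KO-labelled library was above both controls. ELANE and CTSG were picked after their values were seen, from the members that were not called. LYZ, also not called, was left out of the pair. The summed FPKM of ELANE and CTSG was 2029 and 1685 at KO day 3, 1732 and 1140.04 at KO day 5, and 2105 and 1238 in controls. Their larger share therefore goes with the lower summed level of the other 8 genes, LYZ among them, and is no separate difference. SRGN had the highest mean FPKM of the members in controls, 1965 ± 566 (SD, n = 2), against 878 ± 317 at KO day 3 and 822 ± 180.4 at KO day 5. ELANE had the highest in the KO groups, 1141 ± 125 at KO day 3 and 944 ± 180.5 at KO day 5, against 953 ± 173 in controls, but the ELANE and SRGN libraries overlapped in FPKM at both days. RNASE3 was the lowest in controls, at 39.4 ± 4.07 FPKM, against 5.61 ± 0.165 at KO day 3 and 9.62 ± 1.76 at KO day 5. MPO, at 3.28 ± 1.85 FPKM, was the lowest member at KO day 5, against 266 ± 108 in controls, and its level overlapped with that of RNASE3 at KO day 3, at 6.09 ± 2.08 FPKM.

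**Figure D4:**
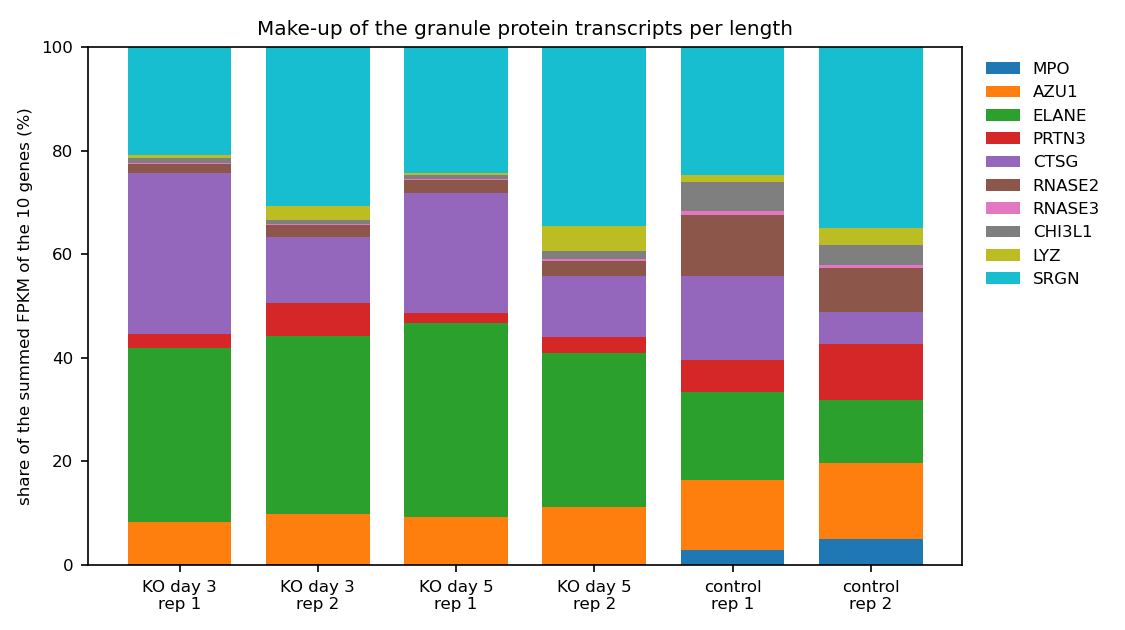
Share of each gene in the summed FPKM of the 10 granule protein genes (y axis, percent) in each library, KO day 3, KO day 5 and control from left to right. ELANE and CTSG together fill 41.5% to 64.7% of the bars of the KO libraries and 18.3% to 33.3% of those of the controls.

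Some members differed between the libraries numbered 1 and 2 in the same way in all 3 groups. In an edgeR test with the group as a term, chosen after the values were seen, 3 members were higher in replicate 2 (MPO, PRTN3 and SRGN) and 1 was lower (CTSG), where 4.08% of all genes were higher and 2.87% lower. The log2 fold change of replicate 2 over replicate 1 was 0.91 for MPO (SE 0.11, adjusted p = 2.61e-05), 0.97 for PRTN3 (SE 0.17, adjusted p = 0.0128), 0.61 for SRGN (SE 0.10, adjusted p = 0.000958) and -1.15 for CTSG (SE 0.10, adjusted p = 1.03e-06). CTSG was 2.09 times higher in replicate 1 at KO day 3, 2.09 times at KO day 5 and 2.48 times in controls. LYZ had the widest value, 2.45 (SE 0.59, adjusted p = 0.238). Without single libraries the value ranged from 0.51 to 0.70 for SRGN and from 1.93 to 2.96 for LYZ, and the SRGN call was lost without either KO day 3 library. In such a fit the library left alone in its group adds nothing to the replicate term. Leaving out either library of a pair therefore compares the same remaining pairs, and calls gained in these fits are not counted. The labels do not say what libraries of the same number share.

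**Figure D5:**
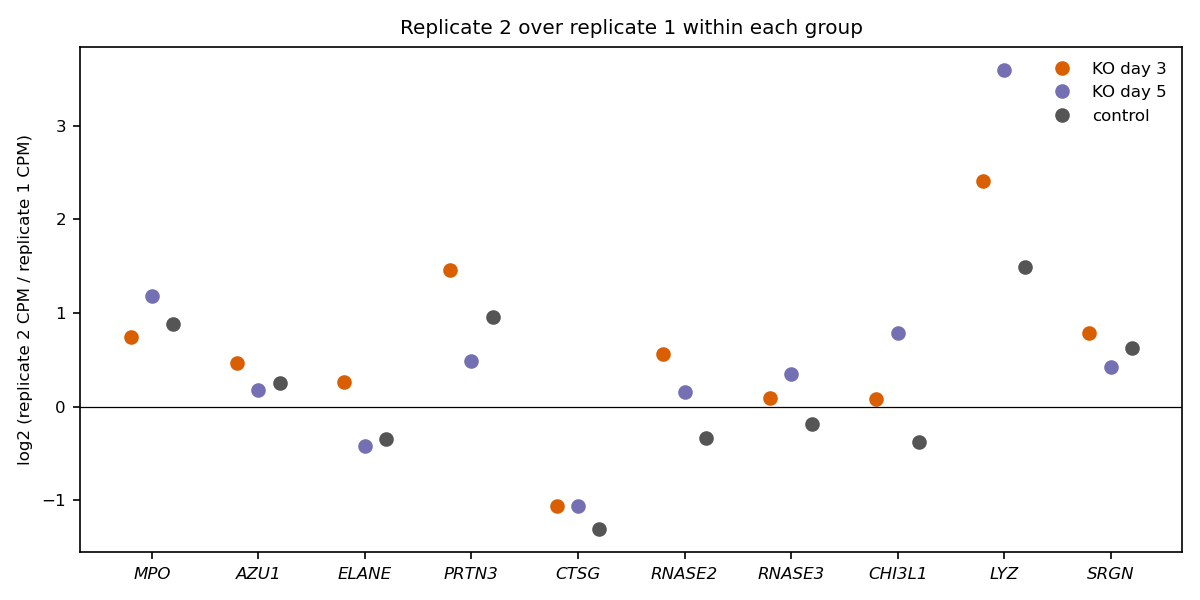
Log2 ratio of replicate 2 CPM over replicate 1 CPM (y axis) of each granule protein gene, with 1 point each for KO day 3, KO day 5 and control. All 3 points of LYZ, MPO, PRTN3, SRGN and AZU1 lie above 0 and all 3 of CTSG below 0, and AZU1 was not called in the test.

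Other azurophil granule genes were compared as background. Of 12 tested genes of lysosomal and primary granule proteins, 1 was called higher and 2 lower at KO day 3. At KO day 5, 0 were called higher and 3 lower (MAN2B1, PRSS57 and FUCA1). There 1 was higher at an unadjusted p under 0.05, and DESeq2 and limma called 0 higher. Their median log2 fold change was -0.08 at KO day 3 and -0.24 at KO day 5. None of these calls held without each library in turn. PRSS57, a serine protease of azurophil granules, stood at 436 and 587 CPM at KO day 3, 350.4 and 415 CPM at KO day 5, and 624 and 967 CPM in controls. Its log2 fold change at KO day 5 was -1.05 (edgeR adjusted p = 0.0292, up to 0.129 over the alternatives, called in 3 of the 6 fits without a library). Specific and gelatinase granule genes were close to the floor, with 3 tested genes at up to 1.82 CPM and 6 more of the 15 listed with too few counts to test. The protease processing enzyme CTSC, cathepsin C, which activates ELANE, CTSG and PRTN3, stood at 190.0 and 217 CPM at KO day 3, 223 and 225 CPM at KO day 5, and 245 and 221 CPM in controls, with no call.

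Regulators of these genes moved in both directions. Of 14 tested transcription factors, 1 was called higher and 4 lower at KO day 3, and 3 higher and 5 lower at KO day 5. RUNX1 stood at 252 and 259 CPM at KO day 3, 259 and 271 CPM at KO day 5, and 581 and 435 CPM in controls (log2 fold changes -0.99 and -0.94 at KO day 3 and KO day 5, edgeR adjusted p = 0.00807 and 0.00798). Its day 3 call was lost without KO day 3 replicate 1 or 2, at an adjusted p of up to 0.0701. MYB fell by 1.06 at KO day 5 (adjusted p = 0.0048), at 289 and 327 CPM at KO day 3, 232 and 185 CPM at KO day 5, and 459 and 411 CPM in controls. CEBPA stood at 318 and 315 CPM at KO day 3, 448 and 469 CPM at KO day 5, and 315 and 343 CPM in controls, and its rise of 0.48 at KO day 5 (adjusted p = 0.0287) was called in 1 of the 6 fits without a library, with an adjusted p of up to 0.130 over the alternatives. SPI1, the gene of PU.1, stood at 182 and 211 CPM at KO day 3, 191 and 233 CPM at KO day 5, and 281 and 351 CPM in controls. Its log2 fold changes of -0.69 and -0.58 (adjusted p = 0.032 and 0.0487) were called in 3 and 1 of the 6 fits without a library, with adjusted p of up to 0.208 and 0.186. EGR1 was called higher at both days (log2 fold changes 1.77 and 2.65), and CEBPB at KO day 5 (0.59). CEBPD (-1.19 and -1.05) and ETV6 (-0.63 and -0.92) were called lower at both days. None of these calls held without each library in turn. GFI1, a repressor known to restrain ELANE, stood at 167 and 166 CPM at KO day 3, 169 and 146 CPM at KO day 5, and 203 and 161 CPM in controls. IRF8, a monocyte lineage factor, stood at 439 and 683 CPM at KO day 3, 313 and 524 CPM at KO day 5, and 355 and 515 CPM in controls. GFI1, IRF8, CEBPG, CBFB, KLF4 and KLF5 were not called, and the remaining members of the list, CEBPE and GFI1B, had too few counts to test.

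Among genes beside the other members, 3 of 11 tested were called lower at both days and 0 higher. Of all genes tested, 5.99% were lower at KO day 3 and 7.05% at KO day 5. Unadjusted p under 0.05 gave 6 lower and 1 higher at KO day 3, and 5 lower and 1 higher at KO day 5. DESeq2 called 3 lower at either day, limma 3 and then 4, and both called 0 higher. TSPOAP1, which lies 20292 bases from MPO, stood at 153 and 247 CPM at KO day 3, 133 and 167 CPM at KO day 5, and 908 and 1252 CPM in controls, and fell by 2.43 at KO day 3 and fell by 2.85 at KO day 5 on the log2 scale (edgeR adjusted p = 0.00482 and 0.00265). LPO, the lactoperoxidase gene 1337 bases from MPO on its other side, stood at 21.7 and 59.4 CPM at KO day 3, 20.7 and 47.5 CPM at KO day 5, and 35.3 and 77.8 CPM in controls, with no call. ADORA1, an adenosine receptor gene near CHI3L1, fell by 3.36 at KO day 3 (adjusted p = 0.00681) and had a log2 fold change of -2.01 at KO day 5 (adjusted p = 0.0245, up to 0.0802 over the alternatives, with no call when control replicate 2 or replicate 1 of KO day 5 was left out). RNASE6, described with the ribonucleases, was the third. MYBPH, 3117 bases from CHI3L1, was not called. Its level was 2.92 and 6.32 CPM at KO day 3 and 0.906 and 11.4 CPM at KO day 5. In controls it was 36.9 and 46.5 CPM. No label says that the library kit keeps strand, and reads from antisense transcripts cannot be separated then. LYZ and SRGN each overlap with an annotated gene that is not listed in the table, and the other members overlap with none.

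Some monocyte and macrophage markers were lower in the same libraries, while CD33 was not called. Of 18 markers, 16 were listed in the table, with a summed level of 133 and 164 CPM at KO day 3, 129 and 159 CPM at KO day 5, and 509 and 455 CPM in controls. In edgeR 5 of the 13 tested were called lower and 0 higher at either day. At an unadjusted p under 0.05, 10 were lower at KO day 3 and 9 at KO day 5, and 0 were higher. DESeq2 called 9 lower at KO day 3 and 8 at KO day 5, limma called 7 lower at either day, and both called 0 higher. The median log2 fold change of the 13 was -2.40 at KO day 3 and -1.85 at KO day 5. CD36, a scavenger receptor, had log2 fold changes of -3.17 at KO day 3 and -3.21 at KO day 5 (edgeR adjusted p = 0.00681 and 0.0052). FCGR2A, an Fc receptor, had log2 fold changes of -1.90 and -1.83 (adjusted p = 0.00366 and 0.00362), and the calls of both genes held without each library. Of the other cell types, neutrophil maturation markers summed to 571 and 552 CPM at KO day 3, 626 and 634 CPM at KO day 5, and 749 and 671 CPM in controls, most of it ITGB2. Among them CSF3R, the receptor of granulocyte colony-stimulating factor, stood at 62.7 and 90.5 CPM at KO day 3, 59.3 and 91.9 CPM at KO day 5, and 126 and 191 CPM in controls. Its log2 fold changes of -1.05 and -1.07 did not pass in edgeR (adjusted p = 0.0777 and 0.0658), while DESeq2 called 1 of the 3 tested markers lower at either day. Of 8 T and NK cell markers, 3 were listed, summing to 101 to 131 CPM over the 6 libraries, nearly all of it NCAM1. B cell markers summed to at most 35.7 CPM, erythroid and megakaryocyte markers to at most 1.04 CPM and epithelial and stromal markers to at most 34.1 CPM in any library. Eosinophil, basophil and mast cell granule genes summed to at most 2.24 CPM, although RNASE2 and RNASE3 are best known from eosinophils. The part of monocyte markers in the members' lower levels was not tested.

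The tested genes with a mean of at least 5 CPM whose log2 CPM profile over the 6 libraries was nearest to that of a member were found by Euclidean distance after centring. Nearest to MPO was IL7R (distance 2.02), followed by RNF175, AL355922.1, CD180 and NAV3. Nearest to AZU1 was IL17RA (distance 0.1245), followed by MILR1, TRIM13, VENTX and MSMO1. Nearest to CHI3L1 was OLIG1 (distance 0.691), followed by AQP3, LINC01451, PTPN3 and AL355922.1, and nearest to LYZ was EEF1A2 (distance 0.719), followed by PTPRU, PURPL, AGT and FGD2.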

How the data were processed

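Poly-A selected RNA of 6 MOLM-13 libraries was sequenced from a kit that no label describes as stranded. The authors deposited 1 table of 24878 genes with a raw count and an FPKM value for every library, per the file headers. The submitters' processing notes name HISAT2, HTSeq 0.11.2, DESeq2 1.26.0 and GRCh38 without roles, and the annotation is not given in the sources used here. The deposited FPKM values of the 10 members match the summed exon lengths of GENCODE release 29, which gave the coordinates.

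The counts went into edgeR 4.0.16 (R 4.3.3). A filter with filterByExpr, at a minimum count of 10 and a minimum total of 15, kept 14601 genes with at least 99.9% of each library's counts. TMM factors were 0.962 to 1.04. All 6 libraries entered 1 robust quasi-likelihood fit of 3 groups with no block (3 residual degrees of freedom, median prior 5.12), and p-values were adjusted by Benjamini-Hochberg over all genes tested. The prior count was 0.125, and each SE is the size of the log2 fold change divided by the root of its F statistic. The script was tested on simulated data. Library pairs differed beyond sampling noise (chi-square over degrees of freedom 17.4 at KO day 3, 23.3 at KO day 5 and 37.7 in controls), so no pair held the same counts within counting noise, and each library was counted on its own. This does not show that a pair came from separate cultures.

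As alternatives, RLE or upper-quartile factors replaced TMM, the filter was dropped or set at 5 CPM in 2 libraries, and further fits used DESeq2 1.42.0, only the groups compared, the replicate block or 1 library fewer. In limma 3.58.1 the deposited FPKM values were tested, where the pseudocount before the log2 was 1 or 0.1 with a filter at a mean FPKM of 0.5, or 1 with no filter. The test of replicate 2 over replicate 1 was added after the values were seen.

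The members and lists were chosen with earlier results of these data known. Named genes were all members, up to 4 genes per other list with the smallest adjusted p, all tested transcription factors and locus neighbours, and the 5 nearest profiles of MPO, CHI3L1, AZU1 and LYZ. CTSC, CD33, ITGB2, CD14, CD163, NCAM1, CSF3R and ALAS1 were named after their values were seen. Some genes that this rule takes are not reported here.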

Additional observations from a re-analysis of the deposited data

How the results depend on the processing

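Against control, the number of members called lower stayed within 1.5 times of its main value under all 16 alternatives (4 to 7 at KO day 3, 5 to 8 at KO day 5). Genes past the threshold at KO day 3 numbered 1710, and 2925 without a filter, 4064 with the replicate block, 254 with limma without a filter and 282 to 1906 without single libraries. At KO day 5 there were 2117, and 3234 without a filter, 4418 with the block, 605 with limma without a filter, 1315 with only the groups compared and 723 to 1874 without single libraries. For KO day 5 over KO day 3 there were 4, and 599 without a filter, 306 with DESeq2, 1117 with the block, 1, 0 and 0 with limma and 1 to 15 without single libraries. Genes of the other lists numbered 26 at KO day 3, with 41 without a filter, 40 with DESeq2, 50 with the block, 3 with limma without a filter and 5 to 26 without single libraries. At KO day 5 they numbered 31, with 55 with the block, 9 with limma without a filter and 12 to 24 without single libraries, and between the days 0, with 7 without a filter, 4 with DESeq2 and 8 with the block. The cause of these differences was not tested.

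Same-numbered libraries share a replicate number and a title letter (A or B), which the labels do not tie to a culture, batch or day, and with 2 pairs they were not taken as paired. Their deviations from the group means correlated by 0.358 (KO day 3 and control), 0.307 (KO day 5 and control) and 0.353 (KO day 5 and KO day 3) over 14601 genes. With the replicate block 3 members were lower at KO day 5 than at KO day 3, MPO (-1.02, adjusted p = 0.000437), PRTN3 (-1.07, adjusted p = 0.0243) and CTSG (-0.60, adjusted p = 0.00648). Against control the block brought PRTN3 (-1.88, adjusted p = 0.000395) and SRGN (adjusted p = 3.32e-06) past the threshold at KO day 3, and CTSG (-0.53, adjusted p = 0.00298) at KO day 5. Over all genes the block fit called 4064 at KO day 3 and 4418 at KO day 5 against control, in either direction. Between the days it called 1117.

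Log2 fold changes that turned sign were those of members without a call. Without single libraries CTSG ranged from -0.59 to 0.83 at KO day 3 and from -1.21 to 0.22 at KO day 5, and ELANE from -0.29 to 0.15 at KO day 5. Between the days AZU1 ranged from -0.42 to 0.044, RNASE2 from -0.31 to 0.24, CHI3L1 from -0.34 to 0.43, LYZ from -2.48 to 1.83 and SRGN from -0.56 to 0.22, with limma values of 0.0771, 0.0783 and 0.0771 for RNASE2 and -0.132, -0.153 and -0.132 for LYZ, and -0.0816 for LYZ with the block. Replicate 2 over replicate 1 ranged from -0.11 to 0.35 for RNASE2, -0.078 to 0.22 for RNASE3 and -0.16 to 0.42 for CHI3L1.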

Other observations

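Granule genes of cytotoxic lymphocytes were also measured. NKG7, a membrane protein of cytotoxic granules, stood at 59.3 and 41.4 CPM at KO day 3, 54.5 and 46.5 CPM at KO day 5, and 112 and 77.1 CPM in controls (edgeR adjusted p = 0.0467 at KO day 3 and 0.0414 at KO day 5, up to 0.239 and 0.188 over the alternatives). PRF1, the perforin gene, stood at 0.365 and 1.87 CPM at KO day 3, 0.226 and 1.31 CPM at KO day 5, and 8.09 and 8.73 CPM in controls. Of 11 tested genes of granule sorting and secretion, 2 were called lower at KO day 3 and 1 at KO day 5. NBEAL2, the gene mutated in grey platelet syndrome, was called at both days and without each library in turn. It stood at 103 and 93.3 CPM at KO day 3, 111 and 106 CPM at KO day 5, and 292 and 212 CPM in controls, with log2 fold changes of -1.36 and -1.21 (edgeR adjusted p = 0.00357 and 0.00464).

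Haem supply, which myeloperoxidase needs, gave 1 gene higher and 1 lower of 8 tested in edgeR at KO day 3, and 0 higher and 1 lower at KO day 5 (0 higher at an unadjusted p under 0.05 and by DESeq2 and limma). None of these calls held without each library in turn. ALAS1, the rate-limiting enzyme of haem synthesis in most cells, stood at 136 and 149 CPM at KO day 3, 134 and 158 CPM at KO day 5, and 154 and 147 CPM in controls. RNH1, the cytosolic inhibitor of secreted ribonucleases, stood at 456 and 458 CPM at KO day 3, 415 and 432 CPM at KO day 5, and 318 and 321 CPM in controls. Its log2 fold changes were 0.52 and 0.41 (edgeR adjusted p = 0.0232 and 0.0423, up to 0.162 and 0.174 over the alternatives), opposite in sign to those of RNASE2 and RNASE3. SLPI, a secreted inhibitor of elastase and cathepsin G, stood at 0.417 and 0.385 CPM at KO day 3, 0.0566 and 0 CPM at KO day 5, and 2.57 and 1.53 CPM in controls.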
